A study of Mus musculus with 6 samples.

Results

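Serpina1a, Serpina1b, Serpina1c, Serpina1d, Serpina1e, Serpina3c, Serpina3k, Serpina3m, Serpina3n and Serpina6, all in one gene cluster on mouse chromosome 12, were followed in liver RNA. These 10 genes were taken by symbol from a count table of 24421 gene symbols, and all 10 were in it. RNA came from livers of 4-month-old male C57BL/6 mice, with 3 samples labelled Sesn3 KO (KO) and 3 labelled wild type (WT). Sesn3 encodes a sestrin, a stress-inducible regulator of mTORC1 and AMPK signalling. Every mouse of both genotypes had eaten a diet with 40% of its energy as fat, 40% as carbohydrate and 20% as protein, with cholesterol at 1.25% and sodium cholate at 0.5%, for 4 weeks. The sources used here do not give the design of the knockout allele or the cells in which it acts. The comparison asks how transcripts of these inhibitors differ between the genotypes on this diet.

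Serpins are protease inhibitors that trap their target by a bait. The protease cuts an exposed reactive loop, and the serpin then changes shape and holds the enzyme in a dead-end complex. The letters of the loop therefore set which protease is inhibited. Human liver secretes alpha-1-antitrypsin from 1 gene, SERPINA1, and alpha-1-antichymotrypsin from 1 gene, SERPINA3, whereas mice carry several copies of each. Alpha-1-antitrypsin protects tissue from neutrophil elastase. Serpina6 encodes corticosteroid-binding globulin, a serpin that carries glucocorticoids in plasma and inhibits no protease. Hepatocytes make most of these proteins, and Serpina3n is a known acute-phase gene.

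The members spanned 767.7 kb of chromosome 12, from 103646630 to 104414329 (mm10, positions from GENCODE release 21). Serpina6 lay at one end, followed by the Serpina1 copies between 103728156 and 103958975, all on the minus strand. Serpina3c came next, on the minus strand, and Serpina3k, Serpina3m and Serpina3n ended the cluster on the plus strand. Each member had 5 exons in its principal transcript. The Serpina1b gene model ran from 103728156 to 103830373 and enclosed Serpina1d, and the models of Serpina3k and Serpina3m started at the same base, 104338486, and shared 60 exonic bases. Ppp4r4 and Gsc flanked the Serpina genes on either side.

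The Serpina1 copies are near-identical. Their coding sequences all had 1239 bases, and pairs agreed at 96.3% (Serpina1b with Serpina1e, and Serpina1d with Serpina1e) to 98.5% of bases (Serpina1a with Serpina1c). The differences were denser where the reactive loop is encoded than in the rest of the coding sequence. A 90-base window with the most of them, 20, ran from coding base 1103 to 1192 and overlapped the loop stretch. In the 90 bases from coding base 1087 to 1176, 19 positions varied among the 5 copies, or 21.1%, against 67 of the other 1149 positions, or 5.83%. These stretches are shown because they are what sets the copies apart as inhibitors. They read 5′ to 3′ on the coding strand, from GENCODE transcripts (mm10), with capitals at each position that varied among the copies.
Serpina1a: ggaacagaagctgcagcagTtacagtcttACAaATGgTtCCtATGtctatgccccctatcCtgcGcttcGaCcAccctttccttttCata
Serpina1b: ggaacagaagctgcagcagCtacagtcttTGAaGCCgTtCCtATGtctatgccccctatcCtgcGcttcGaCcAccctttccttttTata
Serpina1c: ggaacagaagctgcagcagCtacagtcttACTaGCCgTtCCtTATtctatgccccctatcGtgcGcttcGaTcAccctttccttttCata
Serpina1d: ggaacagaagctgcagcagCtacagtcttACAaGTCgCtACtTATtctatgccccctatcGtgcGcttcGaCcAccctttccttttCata
Serpina1e: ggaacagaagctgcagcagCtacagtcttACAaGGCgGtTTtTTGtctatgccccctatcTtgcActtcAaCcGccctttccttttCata
The last 3 consecutive capitals in the first part of the stretch, just before the shared letters tctatg, form the codon of the residue after which the protease cuts. That codon is ATG in Serpina1a and Serpina1b, TAT in Serpina1c and Serpina1d and TTG in Serpina1e.

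The Serpina3 members differed more. Their coding sequences agreed at 82.7% (Serpina3k with Serpina3n) to 91.0% of bases (Serpina3k with Serpina3m). The stretches of the same loop show this for the 4 members, with capitals for the part between the hinge of the loop and the letters at its end. The lower-case ends align between the members but are not identical. That part held 45 bases in Serpina3c, 48 in Serpina3k and 54 in Serpina3m and Serpina3n.
Serpina3c: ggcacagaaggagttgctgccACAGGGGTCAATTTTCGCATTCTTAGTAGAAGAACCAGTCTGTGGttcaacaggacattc
Serpina3k: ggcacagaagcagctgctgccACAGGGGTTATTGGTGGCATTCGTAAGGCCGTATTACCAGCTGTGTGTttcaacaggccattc
Serpina3m: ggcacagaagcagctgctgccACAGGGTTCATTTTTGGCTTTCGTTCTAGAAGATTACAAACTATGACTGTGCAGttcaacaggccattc
Serpina3n: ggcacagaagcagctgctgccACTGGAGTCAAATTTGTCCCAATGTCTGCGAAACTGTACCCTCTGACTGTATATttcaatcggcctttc

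Sequence shared between genes limits how well reads can be assigned to a copy. Of all 50-base pieces of the Serpina1c transcripts, 74.2% also occurred in a transcript of another gene, mostly Serpina1a, and 58.5% of 100-base pieces did. For Serpina1a, Serpina1d, Serpina1e and Serpina1b the shares of 50-base pieces were 57.6%, 50.9%, 34.6% and 29.5%. The Serpina3 members shared less, from 4.25% in Serpina3c to 19.1% in Serpina3m, with 14.0% in Serpina3k, and Serpina6 shared none. The sources used here do not give which reads the authors kept when these matched more than 1 copy. Values of a single Serpina1 copy are therefore uncertain, and the sum over the copies is given beside them.

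**Figure D1:**
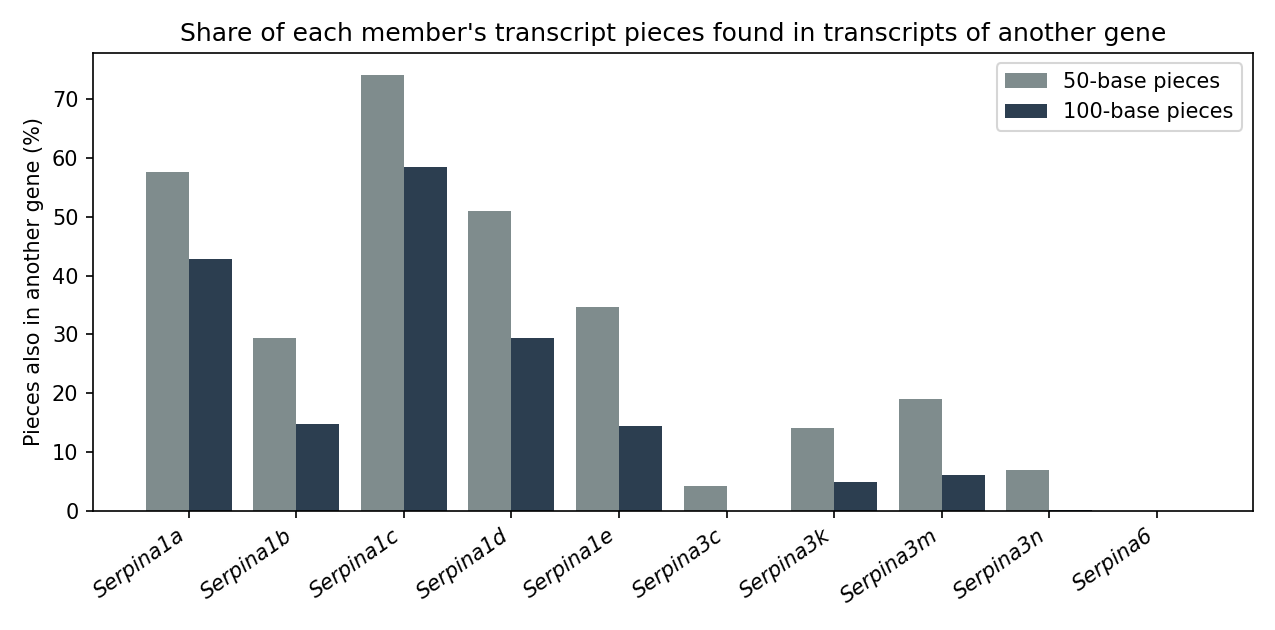
Bars give, for each member, the share of 50-base and 100-base pieces of its transcripts (y axis, %) that also occur in a transcript of another gene. Serpina1c is highest at 74.2% of 50-base pieces, and Serpina6 has none.

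The 6 libraries held 18882220 to 24098512 counts, and levels are given in CPM, counts scaled to the library's size with TMM factors. Sesn3 was at 0.761, 0.695 and 0.689 CPM in KO replicates 1 to 3 and at 9.0, 11.6 and 10.4 CPM in WT replicates 1 to 3, as labelled. Summed levels of 12 hepatocyte markers ran from 102622 to 126083 CPM in KO and from 103638 to 162290 CPM in WT, with 9 of 12 negative in log2 difference (median -0.38), 5 lower in KO without overlap and 1 called lower, Cyp2e1. Those of 12 macrophage markers ran from 2314 to 2833 against 1036 to 2091 CPM, with 3 markers called higher in KO. Those of 12 stellate cell markers ran from 1019 to 1264 against 504 to 640 CPM, with 4 called higher. Taken singly, 7 macrophage and 8 stellate cell markers did not overlap, 1 of each lower in KO. Among all 12945 genes tested, 3.58% were called lower and 3.36% higher. Libraries did not overlap for 33.5% of all genes, and 2148 genes were lower without overlap. Sums overlapped for endothelial markers (10 markers, 249.8 to 556 against 470 to 648 CPM, 0 called). So did those of neutrophil markers (11 in the table, 14.6 to 23.3 against 9.71 to 37.8 CPM, 0 called). Lymphocyte sums (11 markers, 11.2 to 16.02 against 11.3 to 25.2 CPM, 0 called) overlapped too. As single genes, 3 endothelial markers (2 lower in KO) and 3 lymphocyte markers (1 lower) did not overlap. The log2 difference was negative in 9 of 10 endothelial markers (median -0.47). Cholangiocyte markers ran from 126 to 151 against 71.6 to 112 CPM, with 1 of 9 at 0 in all libraries. Of the 9, 7 were tested, and all 7 were positive in log2 difference (median 0.40). Of these, 1 was called higher in KO, and 1 did not overlap. Exocrine pancreas markers ran from 7.82 to 8.88 against 14.1 to 57.8 CPM, with 7 of 10 at 0 and 0 called. Both tested ones were lower in KO without overlap, among them Cela1 at 56.9 CPM in WT replicate 2. The part of these cell types in the results was not tested, and in bulk RNA fewer cells of a type cannot be told apart from less RNA per cell.

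Serpina3k, Serpina1c and Serpina1d were lower in KO, and no member was higher. Of the 10 members 9 passed the filter on low counts, 3 of them passed the test (edgeR adjusted p under 0.05 over all genes), and 0 were called higher, with 0 higher at an unadjusted p under 0.05 too. Among the 12945 genes tested, 6.94% were called in either direction, 3.58% lower and 3.36% higher. At an unadjusted p under 0.05, 6 members were lower, against 1720 lower and 1614 higher genes in all, or 25.8% of those tested. The libraries of the genotypes did not overlap for 6 of the 9, all lower in KO, against 33.5% of all genes tested. The median log2 difference, KO minus WT, was -0.71 over the 9 members and 0.00 over all genes. Without WT replicate 2, the highest library for the Serpina1 copies and Serpina3k, the 3 calls remained. DESeq2 called 6 members lower, the 5 Serpina1 copies and Serpina3k, where it called 8.20% of all genes lower. Without WT replicate 1 the members called lower were 4, without KO replicate 1 or WT replicate 3 they were 1, and without KO replicate 2 or KO replicate 3 they were 0, where 0.771% and 1.99% of all genes were called in either direction.

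**Figure D2:**
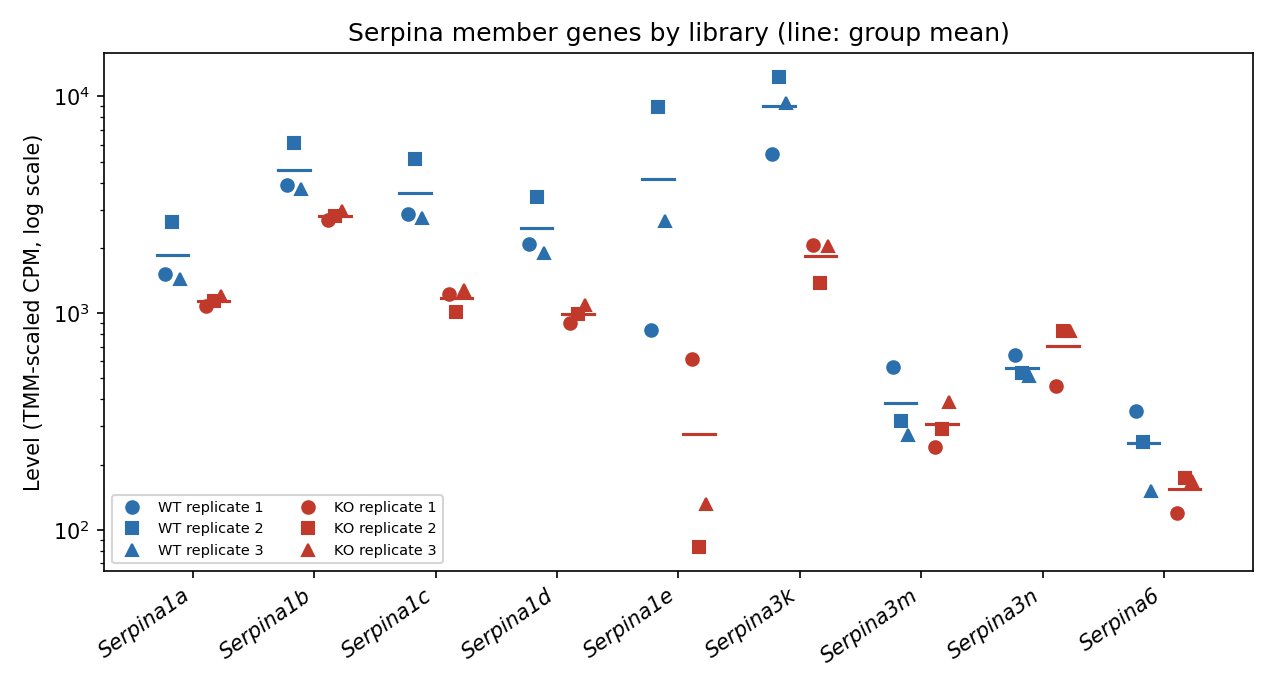
Points give the level of the 9 tested members in each library (y axis, CPM, log scale) for KO and WT, and horizontal lines give group means. All 3 KO libraries lie below all 3 WT libraries in Serpina1a to Serpina1e and Serpina3k, and the groups overlap in Serpina3m, Serpina3n and Serpina6. WT replicate 2 is the highest library in these 6 genes, and WT replicate 1 is the highest WT library in those 3.

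Serpina3k encodes a plasma serpin also known as contrapsin, an inhibitor of trypsin. It was at 2071, 1383 and 2046 CPM in KO replicates 1 to 3 and at 5397, 12356 and 9310 CPM in WT replicates 1 to 3. The lowest WT library lay above the highest KO library, and the WT libraries spread more. Serpina3k was 4.92-fold lower in KO, at 1834 ± 390 CPM against 9021 ± 3488 CPM (SD, n = 3 each; log2 -2.30, SE 0.36, edgeR adjusted p = 0.0153). It was not called without KO replicate 2 (edgeR adjusted p = 0.0846), KO replicate 3 (0.0583) or WT replicate 3 (0.0514). Its 50-base pieces were shared mainly with Serpina3m, which was far less abundant.

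No other Serpina3 member passed the test. Serpina3m was at 242, 291 and 390 CPM in KO and 567, 318 and 273 CPM in WT, with WT replicate 1 the highest of all. Its log2 difference of -0.33 (SE 0.31) did not pass (edgeR adjusted p = 0.549), and without WT replicate 1 it was 0.068. Serpina3n, an inhibitor of granzyme B and leukocyte elastase that is induced in inflammation, was at 463, 823 and 825 CPM in KO and 640, 528 and 511 CPM in WT. KO replicate 1 lay below every WT library and the other two KO libraries above them, and the log2 difference was 0.33 (SE 0.25, edgeR adjusted p = 0.447). Serpina3c was close to absent, with 5, 8 and 0 counts in KO and 4, 3 and 14 in WT, and was not tested.

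The ratio of Serpina3k to each other member within a library needs no scaling between libraries. Serpina3k had the most negative log2 difference of the 3 called members and was the numerator of all 9 ratios. Lower ratios in KO to members that differed less follow from that choice, and the 9 ratios are not independent. Ratios between other genes were not computed, so no background share stands beside them. The log2 ratio of Serpina3k to Serpina3n was 1.41 ± 0.711 in KO and 3.94 ± 0.768 in WT (SD, n = 3 each), a difference of -2.53. To Serpina3m the difference was -1.96, to Serpina1a -1.59, to Serpina1b -1.58, to Serpina1d -0.97 and to Serpina1c -0.68, and for these 6 the KO and WT ratios did not overlap. Each gave an exact permutation p of 0.10 (two-sided), the smallest that 3 against 3 allows, and 0.15 after Benjamini-Hochberg adjustment over the 9 ratios. The ratio to Serpina1e rose by 1.60, in the other direction, with overlapping libraries (exact permutation p = 0.30). To Serpina6 and Serpina3c the differences were -1.60 and -0.74, with overlap (exact permutation p = 0.20 and 0.70).

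Serpina1c was at 1228, 1013 and 1280 CPM in KO and 2882, 5167 and 2747 CPM in WT. It was 3.07-fold lower in KO (log2 -1.62, SE 0.29, edgeR adjusted p = 0.0234), and was not called without KO replicate 1 (0.0701), KO replicate 2 (0.116) or KO replicate 3 (0.0758). Serpina1d was at 896, 991 and 1086 CPM in KO and 2086, 3426 and 1898 CPM in WT. It was 2.49-fold lower (log2 -1.32, SE 0.26, edgeR adjusted p = 0.0314), and was not called without KO replicate 1 (0.0910), KO replicate 2 (0.1325), KO replicate 3 (0.0885) or WT replicate 3 (0.0534). In both copies every KO library lay below every WT library. These are the 2 copies with TAT as the codon at the cut site. Whether the size of the difference goes with this codon was not tested. Of the 50-base pieces of Serpina1c, 69.4% also occurred in Serpina1a, so reads of these 2 copies are hard to tell apart.

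Serpina1a and Serpina1b, the copies with ATG at the cut site, did not pass. Serpina1a was at 1082, 1141 and 1203 CPM in KO and 1519, 2621 and 1444 CPM in WT (log2 -0.70, SE 0.26, edgeR adjusted p = 0.144). Serpina1b was at 2689, 2820 and 2945 CPM in KO and 3911, 6077 and 3721 CPM in WT (log2 -0.70, SE 0.25, edgeR adjusted p = 0.129). The libraries did not overlap in either copy. DESeq2 called both, with an adjusted p of 0.0375 and 0.0144.

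Serpina1e, with TTG at the cut site, had the widest spread of the tested members. It was at 614, 83.1 and 132 CPM in KO and at 836, 8980 and 2667 CPM in WT. KO replicate 1 and WT replicate 1 were close to each other. KO replicates 2 and 3 lay below these 2 libraries, and WT replicates 2 and 3 lay above them. The log2 difference of -3.91 (SE 1.11) was the most negative of the members tested and did not pass (edgeR adjusted p = 0.0800). It was -5.25 without KO replicate 1 and -2.67 without WT replicate 2, and passed without WT replicate 1 (log2 -4.39, edgeR adjusted p = 0.0481). DESeq2 gave an adjusted p of 0.0137.

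Summed over the 5 copies, Serpina1 was at 6509, 6049 and 6646 CPM in KO and 11234, 26270 and 12478 CPM in WT. The WT mean was 2.60 times the KO mean, and 1.85 times without WT replicate 2. Without Serpina1e the sum over the other 4 copies in WT was 2.04 times that in KO. Moving reads between the copies leaves the sum as it is, but discarding reads that match several copies would not. The Serpina1 copies made up 0.689 ± 0.0504% of all counts in KO and 1.52 ± 0.640% in WT (SD, n = 3 each). All 10 members together made up 1.01 ± 0.0703% and 2.46 ± 0.859%.

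The make-up of these sums differed between libraries. Serpina1b took 44.1 ± 2.66% of the Serpina1 counts in KO and 29.3 ± 5.86% in WT (SD, n = 3 each). Serpina1e took 9.44% in KO replicate 1 (95% exact binomial interval 9.29% to 9.59%), 1.37% in KO replicate 2 (1.32% to 1.43%) and 1.99% in KO replicate 3 (1.92% to 2.06%). In WT replicates 1 to 3 it took 7.44% (7.33% to 7.56%), 34.2% (34.0% to 34.3%) and 21.4% (21.2% to 21.5%). These intervals cover counting error only, and the libraries of 1 genotype differed by far more. Of the counts of the 4 Serpina3 members, Serpina3k took 64.2 ± 9.70% in KO and 89.2 ± 6.50% in WT, and Serpina3n 25.0 ± 8.14% and 6.25 ± 3.03%.

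**Figure D3:**
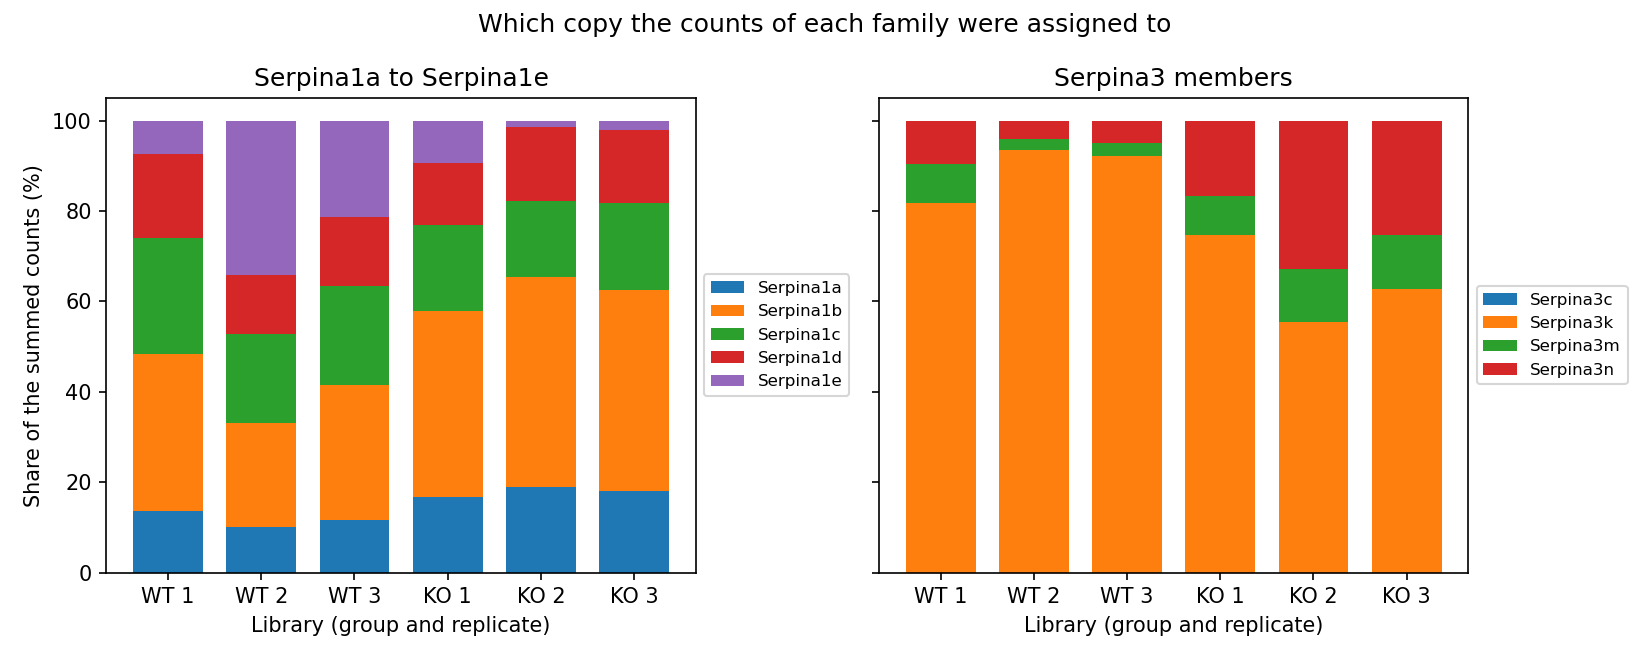
Stacked bars give the share of the summed counts (y axis, %) assigned to each copy in each library (x axis), for the Serpina1 copies and the Serpina3 members. Serpina1e takes 34.2% in WT replicate 2 and 1.37% in KO replicate 2, and Serpina3k takes the most in every library of the right panel.

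Serpina6 was at 120, 174 and 168 CPM in KO and 352, 254 and 151 CPM in WT. WT replicate 3 lay below the 2 higher KO libraries, and the log2 difference of -0.71 (SE 0.31) did not pass (edgeR adjusted p = 0.202). No 50-base piece of it occurred in another gene.

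Between genes, levels were compared as CPM per kb of the principal transcript. Sequence shared between copies was not allowed for. Among the Serpina1 copies the share of 50-base pieces was lowest in Serpina1b (29.5%) and Serpina1e (34.6%) and highest in Serpina1c (74.2%). The order of these copies is therefore uncertain. For Serpina1b the length used was 1394 bases, where all its exons cover 2415. In WT the order of the means was Serpina3k (4386 ± 1696), Serpina1b (3278 ± 939), Serpina1e (3213 ± 3299), Serpina1c (2644 ± 999), Serpina1d (1772 ± 598) and Serpina1a (1369 ± 485 CPM per kb, SD, n = 3 each). Serpina3n, Serpina3m and Serpina6 followed at 271 ± 34.1, 233 ± 95.4 and 157 ± 62.7 CPM per kb, and Serpina3c was last at 0.17 ± 0.145. Among the first 6, each neighbouring pair lay within its spread, and so did the neighbours from Serpina3n to Serpina6. In KO Serpina1b led at 2021 ± 91.9 CPM per kb, ahead of Serpina3k at 891 ± 190, Serpina1c at 862 ± 104, Serpina1a at 840 ± 44.6 and Serpina1d at 711 ± 68.3. Here Serpina1b stood beyond the spread of Serpina3k and Serpina1a beyond that of Serpina1d, while Serpina3k, Serpina1c and Serpina1a overlapped. Serpina3n (341 ± 101), Serpina1e (214 ± 227), Serpina3m (186 ± 45.7), Serpina6 (96.0 ± 18.5) and Serpina3c (0.0783 ± 0.0713) came last in KO.

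Of the members 7 had an entry in the RefSeq promoter table (GRCm38.p6), among them all Serpina1 copies. A 66-base stretch before the RefSeq start sites is shown because the copies are alike there while their levels differed. The first capital lies 16 to 27 bases upstream of the start in Serpina1a to Serpina1d and 78 bases upstream in Serpina1e, and the Serpina1b stretch lies inside the longer GENCODE model of that gene. It lies on the minus strand of chromosome 12, at 103863625 to 103863690 for Serpina1a, 103738200 to 103738265 for Serpina1b, 103904962 to 103905027 for Serpina1c, 103773634 to 103773699 for Serpina1d and 103956960 to 103957025 for Serpina1e. Capitals mark GTTAATATTCAC, the letters GTTAAT nearest the start in Serpina1a and the 6 bases after them. They are part of a longer run of letters identical in the 5 copies.
Serpina1a: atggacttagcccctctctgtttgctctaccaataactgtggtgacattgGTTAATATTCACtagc
Serpina1b: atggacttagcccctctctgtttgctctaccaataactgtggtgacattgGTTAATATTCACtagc
Serpina1c: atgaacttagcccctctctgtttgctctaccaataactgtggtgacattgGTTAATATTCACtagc
Serpina1d: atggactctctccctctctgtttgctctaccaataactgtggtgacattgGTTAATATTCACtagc
Serpina1e: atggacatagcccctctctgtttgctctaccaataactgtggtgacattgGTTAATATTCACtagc
These stretches varied at 6 of 66 positions, all of them near the left end and 0 in the capitals. The identical letters are therefore not particular to the capitals. Searched on both strands, GTTAATATTCAC occurred in 5 of 32851 promoters of 300 bases, or 0.0152%, all of them Serpina1 copies from whose sequences it was chosen. Its first letters alone, GTTAAT, occurred in 7.10%. A match is a description of letters.

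Of the 15 other Serpina genes of the cluster 14 were in the table, 6 were tested, 2 were lower in KO and 0 higher (unadjusted p under 0.05: 4 lower, 0 higher, where 25.8% of all genes passed in either direction; median log2 difference -1.47). Serpina12, which encodes the serpin vaspin, was at 20.8, 11.15 and 10.6 CPM in KO and 70.1, 82.7 and 152 CPM in WT. It was 7.14-fold lower (log2 -2.84, SE 0.39, edgeR adjusted p = 0.0121), and was not called without KO replicate 2 (0.0708) or KO replicate 3 (0.0538). Serpina11 was 2.25-fold lower, at 50.9 ± 1.56 against 114 ± 35.6 CPM (edgeR adjusted p = 0.0239; SD, n = 3 each), and was not called when 1 KO library, whichever it was, or WT replicate 3 was left out (0.0624 to 0.108). With all libraries, 3.58% of all genes were called lower. The count of lower genes among these 6 was 4 without WT replicate 2 and 1 without KO replicate 1 or WT replicate 3. It was 0 without KO replicate 2 or KO replicate 3. Serpina3g, an intracellular relative, was at 31.8, 21.8 and 18.6 CPM in KO and 150, 19.3 and 76.4 CPM in WT, and did not pass (edgeR adjusted p = 0.143). The pseudogene Serpina4-ps1 had 2, 1 and 0 counts in KO and 3, 131 and 216 in WT and was not tested. Serpina4-ps1, Serpina3g and the other genes outside the rule for naming were chosen after their values were seen.

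**Figure D4:**
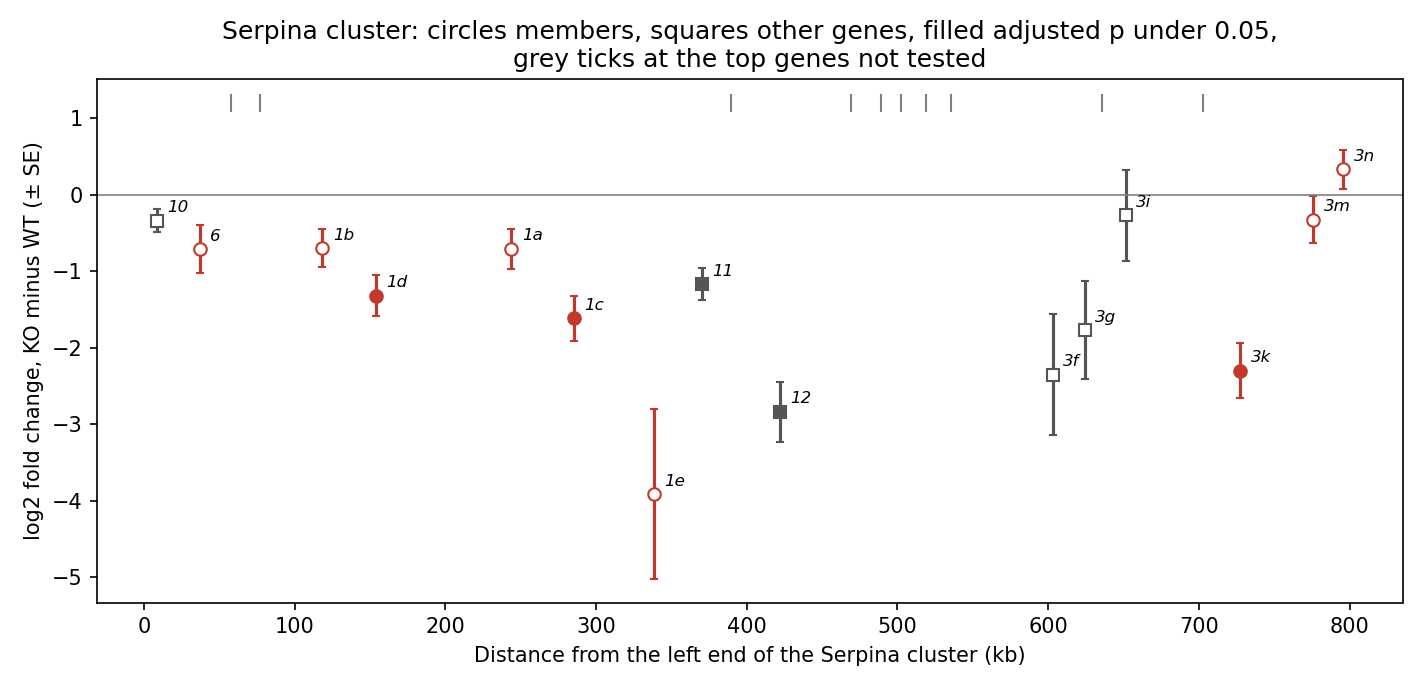
Points give the log2 difference, KO minus WT (y axis), of each tested Serpina gene of the cluster, with bars of 1 SE, against the distance from the end of the cluster (x axis, kb). Circles are members, squares are other genes, filled symbols passed the test, and grey ticks mark genes not tested. Serpina1e is lowest at -3.91 with the widest bar, and Serpina3n is the 1 gene above 0.

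Among 27 serpins encoded elsewhere 16 were tested, 1 was lower and 2 were higher (median log2 difference -0.10). Called shares over all genes were 3.58% lower and 3.36% higher. Serping1, the inhibitor of complement C1, was 2.07-fold lower (edgeR adjusted p = 0.0234), and was not called when 1 KO library, whichever it was, or WT replicate 3 was left out (0.0694 to 0.111). The intracellular serpins Serpinb6a and Serpinb8 were 2.24-fold and 2.51-fold higher (edgeR adjusted p = 0.0146 and 0.0348). Serpinb6a was not called without KO replicate 2, KO replicate 3 or WT replicate 3 (0.0538 to 0.0746), and Serpinb8 without each library but WT replicate 1 (0.0548 to 0.112) and with limma-voom (0.0538). Antithrombin, encoded by Serpinc1, was at 2157 ± 205 against 2451 ± 477 CPM (edgeR adjusted p = 0.625; SD, n = 3 each). The count of lower serpins was 0 when 1 KO library, whichever it was, or WT replicate 3 was left out, and that of higher serpins 0 or 1 in each fit without 1 library but that without WT replicate 1.

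Of 27 serine proteases and clearance receptors 21 were tested, with 3 lower and 1 higher (median log2 difference -0.53). Called shares over all genes were 3.58% lower and 3.36% higher. Tmprss2, a membrane serine protease, was 3.83-fold higher, with 18.7 ± 1.92 CPM in KO and 4.87 ± 1.0 CPM in WT (edgeR adjusted p = 0.00429; SD, n = 3 each), and passed without each library. Hgfac, the activator of hepatocyte growth factor, was 1.75-fold lower and F11, coagulation factor XI, 1.72-fold lower (edgeR adjusted p = 0.0240 and 0.0428). Hgfac was not called when 1 KO library, whichever it was, was left out (0.0701 to 0.111), and F11 without each library but WT replicate 1 (0.0666 to 0.161) and with library size only (0.0684). The count of lower genes was 0 without KO replicate 1 or KO replicate 2 and 1 without KO replicate 3 or WT replicate 3. Lrp1, which clears complexes of serpins with proteases, was at 763 ± 138 against 833 ± 208 CPM (edgeR adjusted p = 0.769; SD, n = 3 each). Elane, neutrophil elastase, had 1, 0 and 0 counts in KO and 7, 1 and 6 in WT.

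Among 36 other plasma proteins of hepatocytes 35 were tested and edgeR called 0, with 11 lower and 1 higher at an unadjusted p under 0.05, where 25.8% of all genes passed. DESeq2 called as many, 11 lower and 1 higher, where it called 15.3% of all genes in either direction and 8.20% lower. The log2 difference was negative in 28 of the 35 (median -0.48). Without overlap, 16 were lower in KO, against 2148 of all 12945 genes tested. Transthyretin, Ttr, was at 3158 ± 466 against 6148 ± 1686 CPM (SD, n = 3 each) and did not pass (edgeR adjusted p = 0.0682), nor did Apoa2, at 2688 ± 772 against 5464 ± 1471 CPM (edgeR adjusted p = 0.0900). Without WT replicate 2 edgeR called 3 lower. Alb, albumin, was at 76209 ± 8099 against 71749 ± 25196 CPM (edgeR adjusted p = 0.894; SD, n = 3 each), and haptoglobin, Hp, at 8012 ± 326 against 8208 ± 2818 CPM (edgeR adjusted p = 0.956).

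Of 26 genes for folding, export and disposal of secreted proteins in the endoplasmic reticulum 24 were tested, 2 were lower and 0 higher (unadjusted p under 0.05: 11 lower, 0 higher, against 25.8% of all genes; median log2 difference -0.34). Derl3 and Derl2, which take part in the removal of misfolded proteins, were 7.76-fold and 1.71-fold lower (edgeR adjusted p = 0.00909 and 0.0123). Derl3 was low, with 25, 26 and 17 counts in KO and 80, 127 and 192 in WT. Derl2 was at 61.8 ± 5.05 against 106 ± 5.21 CPM (SD, n = 3 each). Derl3 was not called without KO replicate 2 (0.0589), and Derl2 without KO replicate 2 (0.0777), without KO replicate 3 (0.0580) and with library size only (0.0599). The count was then 0 without KO replicate 2 and 1 without KO replicate 3. Lman1, a cargo receptor that exports alpha-1-antitrypsin, was at 215 ± 16.7 against 320 ± 29.8 CPM (SD, n = 3 each) and just missed the threshold (edgeR adjusted p = 0.0508). DESeq2 called 9 lower. Over all genes, edgeR called 3.58% lower and DESeq2 8.20%.

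All 34 hormone and cytokine genes listed as regulators were tested, 4 were lower and 0 higher (unadjusted p under 0.05: 11 lower, 1 higher, against 25.8% of all genes; median log2 difference -0.28). Hsd11b1, which regenerates active glucocorticoid, was 3.60-fold lower, at 187, 199 and 213 CPM in KO and 640.5, 859 and 661 CPM in WT (edgeR adjusted p = 0.00421), and passed without each library. Ghr, the growth hormone receptor, was 3.30-fold lower (edgeR adjusted p = 0.00626) and was not called without KO replicate 2 (0.0525). The cytokine receptors Il1r1 and Lifr were 1.75-fold and 2.61-fold lower (edgeR adjusted p = 0.0376 and 0.0408), and neither was called when 1 KO library, whichever it was, or WT replicate 3 was left out (0.0673 to 0.153). Il1r1 was not called with library size only either (0.0573). The count was 2 without KO replicate 1 or KO replicate 3 and 1 without KO replicate 2, and DESeq2 called 8 lower. Over all genes, edgeR called 3.58% lower and DESeq2 8.20%. Nr3c1, the glucocorticoid receptor, and Hnf4a were at log2 differences of -0.34 and -0.14 (edgeR adjusted p = 0.108 and 0.698).

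Patterns over the 6 libraries were compared with those of the most abundant Serpina1 and Serpina3 members. The measure was the root-mean-square difference of the log2 of CPM plus 0.5, after each gene was centred on its own mean. The 5 genes nearest to Serpina1b were Acadsb, Glt28d2, Vtn, Slc46a1 and Calr3, at 0.0563 to 0.0760. Mean levels were low in Glt28d2 (3.32 CPM in KO, 5.94 in WT) and Calr3 (0.851 in KO, 1.49 in WT). At such levels the added 0.5 narrows differences more. The 5 nearest to Serpina3k were Ces1f, Cyp7b1, Ugt2b1, Cyp2d40 and Slc22a30, at 0.212 to 0.245. Cyp7b1, a hydroxylase of oxysterols, was at 38.8 ± 2.74 CPM in KO and 226 ± 107 CPM in WT (SD, n = 3 each). These genes were picked for their likeness to Serpina3k over the same libraries, so lower levels in KO follow from the choice and are given with no test. Most belong to families with close relatives, but sequence shared with these was not measured and any splitting of reads was not tested.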

How the data were processed

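RNA was measured in 3 liver samples labelled Sesn3 KO and 3 labelled wild type. The authors deposited raw whole-number counts of reads for each gene symbol, which were tested as given. The build mm10 and the tools edgeR 3.20.8, Subread 1.5.3, featureCounts and STAR 2.5 come from the submitters' processing notes, without roles. The sources used here do not give the annotation, the strand setting or the handling of reads matching several genes. Libraries were grouped by the labelled genotype and numbered in accession order. The labels name no animals, litters or batches, so p-values reflect only how these samples vary.

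KO minus WT was tested two-sided with quasi-likelihood in edgeR 4.0.16 (R 4.3.3) after filterByExpr with a minimum count of 10 and a minimum total of 15, TMM scaling and robust glmQLFit. P-values were adjusted by Benjamini-Hochberg over 12945 genes, with a threshold of 0.05. Standard errors are approximate, the log2 difference divided by the root of F. Ratios within a library used counts plus 0.5 and an exact permutation test of 20 splits. The script was tested on simulated data. There, edgeR called 0% of 50 genes changed 1.5-fold, 44% of 50 changed 2-fold and 82% of 50 changed 4-fold. Of its calls, 6.78% were genes left unchanged. Differences near 1.5-fold can therefore be missed. Sequence comparisons used GENCODE release 21 transcripts, RefSeq promoters and Biopython 1.88.

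The members and lists were chosen with earlier results of these data known, so a list's count is no independent evidence. Named genes were the members, the 4 called genes of smallest p per list, and the 5 nearest patterns, of which 1 gene is not reported here. Alternatives were DESeq2 1.42.0, limma-voom (limma 3.58.1), upper-quartile and RLE factors, scaling by library size alone, a filter of 1 CPM in 3 libraries or none, dispersion without robust fitting, and leaving out each library.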

Additional observations from a re-analysis of the deposited data

How the results depend on the processing

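Serpina3k, Serpina1c and Serpina1d were called lower under each of the 8 alternatives that kept all libraries. DESeq2 called 6 members. With fewer libraries the members called lower ranged from 0 to 4, those of the other cluster genes from 0 to 4, of serpins elsewhere from 0 to 1, of proteases and receptors from 0 to 4, of plasma proteins from 0 to 3, of endoplasmic reticulum genes from 0 to 3 and of regulators from 1 to 5. Serpins elsewhere called higher then ranged from 0 to 2, and all genes from 53 to 475 lower and 48 to 504 higher. Library size only, which moved the median of all genes by 0.21 (log2), gave 258 lower and 707 higher genes, 1 lower gene for the endoplasmic reticulum, and 1 higher gene each for plasma proteins and regulators. DESeq2 gave 1061 lower and 921 higher genes, with 11 lower and 1 higher for plasma proteins, 9 lower for the endoplasmic reticulum, 8 lower and 1 higher for regulators and 2 higher for proteases and receptors. Limma-voom called 1 serpin elsewhere higher. With 1 library left out, the difference in the log2 ratio of Serpina3k to Serpina3c ranged from -2.06 to 0.19, positive without KO replicate 2, and the log2 difference of Serpina3m from -0.53 to 0.068, positive without WT replicate 1; the cause was not tested. No paired analysis was possible because the replicate numbers only follow accession order. Depth limits Serpina3c, with at most 14 counts per library.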
